A study of Mus musculus with 4 samples.

Results

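The liver X receptors (LXR), the genes through which cells export and remodel cholesterol and phospholipid, and the genes for lipid uptake and storage were examined in splenic Esam dendritic cells (DC) that lacked the transcription factor Runx3. The group was listed by name: the receptor genes Nr1h3 (LXR-alpha) and Nr1h2 (LXR-beta), the efflux genes Abca1, Abcg1 and Apoe, the LXR-induced genes Mylip and Lpcat3, and the lipid storage and uptake genes Plin2 and Cd36. Of these 9 genes, 8 had a probe set annotated with that 1 symbol, and each had exactly 1. No probe set was annotated with the symbol Nr1h2 alone, so LXR-beta was not analysed here. The 8 genes stand among 9894 genes whose log2 value reached 6.5 on at least 1 array, the limit that the study's methods use for signal above background, and none of the 8 was lost to that limit.

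RNA of 4 mice, aged 6 weeks, was hybridised to 1 Affymetrix array per mouse. The 2 cKO mice (genotype DCRunx3 -/-) carried Runx3fl/fl together with Cre under the CD11c promoter, and the 2 wt mice (genotype DCRunx3 +/+) were their littermates, with 1 mouse of each genotype in each of 2 litters. The study describes the WT controls of its flow cytometry as Runx3fl/fl littermates without Cre, while the array labels give only DCRunx3 +/+. Cells were taken from the CD11c+ MHCII+ gate of magnetically enriched spleen cells and sorted on Esam, CD4 and CD8, and the study names the fraction kept as CD4+ Esam-high DC. Recombination under this promoter is not limited to Esam DC, since other DC and some macrophages also make CD11c.

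Several facts of the series bear on every value below. The Runx3 probe set itself was at 11.37 and 11.51 in wt and at 11.47 and 11.45 in cKO, and since its position relative to the deleted part is unknown here, it does not check the genotype. All 4 mice are labelled male, whereas Xist was at 12.75 and 12.78 in the wt and cKO mouse of litter 1 and at 5.15 and 5.19 in those of litter 2. Kdm5d, on the Y chromosome, was at 5.3 and 5.2 in the wt and cKO mouse of litter 1 and at 9.8 and 9.9 in those of litter 2. By these genes litter 1 reads as female and litter 2 as male, against the labels. Litter and sex so read coincide, and a within-litter value or a litter block cannot separate them. Each genotype held 1 array of each kind, and the differences of the measured genes are also given within each litter. Genes that define DC were bright on all arrays, with Itgax (CD11c) between 12.99 and 13.12 and H2-Ab1 (MHC class II) between 13.68 and 13.73, and Esam lay between 10.10 and 10.64. All 6 T and NK cell markers examined lay under 6.5 on all arrays.

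LXR are nuclear receptors that bind oxysterols, oxidised forms of cholesterol, and act on DNA as pairs with a retinoid X receptor (RXR). When sterols accumulate they switch on transporters that pass cholesterol to lipoprotein particles, an enzyme that limits lipoprotein uptake and enzymes that reshape membrane phospholipids. In the spleen LXR-alpha is known for its part in the differentiation of marginal zone macrophages. CD4+ DC of the spleen also respond to oxysterols through a separate surface receptor, Gpr183, which guides their position.

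All 8 measured genes had higher values in both cKO mice than in either wt mouse. This was so for 17.1% of the 9894 genes tested, while 28.3% had lower values in both cKO mice. Differences (cKO minus wt, log2 scale) ran from 0.24 for Lpcat3 to 1.48 for Cd36, with a median of 0.62, against a median of -0.03 over all genes tested. Within litter 1 and within litter 2 alike, the cKO mouse was higher for 8 of 8 genes, as for 23.8% of all genes. The genes had been picked with results of these arrays known, so these counts describe them and do not test them. Abca1, with both wt values under 6.5, passed the filter only through its cKO arrays. It is part of these counts and of those below, where it gives no support.

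**Figure D1:**
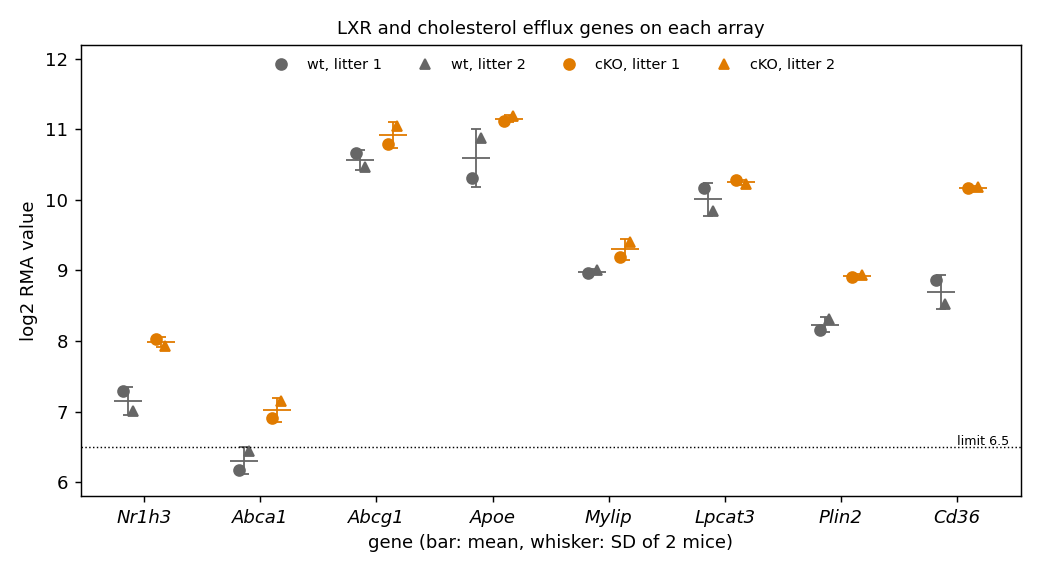
Log2 RMA values (y axis) of the 8 measured genes (x axis) on each array, circles for litter 1 and triangles for litter 2, grey for wt and orange for cKO, with the mean (bar) and SD (whisker) of 2 mice. Both orange points lie above both grey points for each gene, for example at 10.16 and 10.19 against 8.86 and 8.52 for Cd36. Heights of different genes come from different probes and are not to be compared.

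No gene of the group passed limma's test after adjustment over all 18889 probe sets tested, and neither did any other probe set (0%). At an unadjusted limma p under 0.05, 5 of the 8 genes were higher and 0 were lower, against 5.37% and 4.92% of all genes tested. At the study's thresholds, 1.5-fold in either direction with p up to 0.05, unadjusted, by the one-way test of its methods, Nr1h3, Plin2 and Cd36 passed and the other 5 did not. Of all genes tested, 1.39% passed these thresholds as higher and 0.455% as lower in cKO. With the litter as a block these 3 missed the p limit and Abca1 alone passed, against 0.778% of all genes as higher, in a one-way test left with 1 residual degree of freedom. Without either cKO mouse 0 of the 8 passed. With each gene reduced to 1 probe set before fitting, 0.424% of genes passed the adjusted threshold, among them Cd36 (limma, adjusted p = 0.0375) and no other gene of the group.

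With the litter as a block in that fit of 1 probe set per gene, Cd36 (limma, adjusted p = 0.00465), Nr1h3 (0.0122), Abca1 (0.0136) and Plin2 (0.0156) passed, a fit added after the data were seen. That fit called 4.13% of all genes. For the same 4 genes the gap between the closest wt and cKO arrays was wider than the gap between the mice of either genotype, as it was, with cKO higher, for 6.48% of all genes. For the other 4 it was not. The promoters of these 4 genes are shown here because their differences are the widest of the group, as RefSeq windows of 300 bases (250 before and 50 after the annotated start, assembly GRCm38.p6), in which capitals mark the letters AGGTCA on either strand, the half-site that nuclear receptors of the LXR kind bind.

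Nr1h3, chr2:91195067-91195366, minus strand: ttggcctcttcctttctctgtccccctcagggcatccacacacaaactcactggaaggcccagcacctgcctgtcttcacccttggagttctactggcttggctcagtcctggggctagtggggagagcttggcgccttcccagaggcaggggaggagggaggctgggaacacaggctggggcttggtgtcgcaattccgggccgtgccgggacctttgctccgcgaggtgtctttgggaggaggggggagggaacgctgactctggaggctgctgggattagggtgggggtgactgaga
Abca1, chr4:53159846-53160145, minus strand: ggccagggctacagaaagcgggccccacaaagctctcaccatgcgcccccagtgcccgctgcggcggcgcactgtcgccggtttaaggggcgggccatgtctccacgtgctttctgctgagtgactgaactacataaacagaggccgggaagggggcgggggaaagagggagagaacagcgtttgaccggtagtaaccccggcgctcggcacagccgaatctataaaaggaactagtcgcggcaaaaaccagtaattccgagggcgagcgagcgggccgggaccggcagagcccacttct
Plin2, chr4:86670010-86670309, minus strand: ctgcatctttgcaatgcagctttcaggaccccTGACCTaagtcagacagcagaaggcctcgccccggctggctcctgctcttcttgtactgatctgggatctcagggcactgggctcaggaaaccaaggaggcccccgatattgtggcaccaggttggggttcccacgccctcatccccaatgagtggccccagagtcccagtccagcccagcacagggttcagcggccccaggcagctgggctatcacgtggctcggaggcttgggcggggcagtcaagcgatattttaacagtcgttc
Cd36, chr5:17835847-17836146, minus strand: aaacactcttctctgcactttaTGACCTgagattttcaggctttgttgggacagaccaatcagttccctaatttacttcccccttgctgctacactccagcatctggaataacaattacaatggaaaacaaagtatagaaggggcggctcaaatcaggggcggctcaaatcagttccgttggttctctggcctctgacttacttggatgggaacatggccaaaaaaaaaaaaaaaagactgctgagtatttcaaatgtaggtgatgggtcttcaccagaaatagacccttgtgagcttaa

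Windows were at hand for 8 of the 9 genes, Abcg1 excepted, and numbered 11 with alternative starts. Some windows of the same gene overlap, so the 11 are not separate. The RUNX motif TGTGGT was in none of the 11 on either strand, against 16.8% of all 32851 windows of this length. Counted by gene it was in 0 of 8, against 18.9% of all genes with windows, and with 8 genes such a count says little. The half-site AGGTCA was in 2 of the 11 windows, those of Plin2 (218 bases before the start) and Cd36 (228 bases before it), on the other strand and so printed as TGACCT, against 16.3% of all windows. The exact letters of an LXR element, 2 such half-sites 4 bases apart, were in none of the 11 and in 0.0152% of all windows. Allowing 1 mismatch in each half-site, a choice made after the values were seen, still gave none, against 1.75%. Half-sites with more mismatches were not searched for, so a working LXR element, in the Abca1 window for example, may have been missed. These counts concern the letters in these windows, and binding further away from the starts was not examined.

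Nr1h3 encodes LXR-alpha, the receptor of the pair whose expression is restricted to fewer tissues and is high in macrophages. It was at 7.29 and 7.01 in wt and at 8.03 and 7.93 in cKO. The cKO mice lay close together and 0.64 above the nearest wt mouse. The difference was 0.83 with a standard error of 0.13 (1.78-fold, 95% interval 1.39 to 2.28), with 0.74 within litter 1 and 0.92 within litter 2. Of all genes tested, 1.12% had a wider increase.

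Among the efflux genes, Abca1, the transporter that loads cholesterol and phospholipid onto apolipoprotein A-I, was at 6.17 and 6.44 in wt and at 6.91 and 7.15 in cKO. Both wt values lie under the limit of 6.5, so the gene passed the filter only through its cKO arrays, where it is high, and no fold is given. The difference was 0.72 with a standard error of 0.15, and it was nearly equal in litter 1 (0.74) and litter 2 (0.71). It missed the p limit of the one-way test.

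Abcg1, which moves cholesterol to high-density lipoprotein, was at 10.66 and 10.46 in wt and at 10.79 and 11.05 in cKO. The groups did not overlap, but the gap between them, 0.13, was narrower than the spread within each genotype. The difference of 0.36 (standard error 0.14, 1.28-fold, 95% interval 0.99 to 1.67) was 0.13 in litter 1 and 0.59 in litter 2. It was 0.49 with cKO replicate 1 left out and 0.23 with cKO replicate 2 left out.

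Apoe encodes apolipoprotein E, a lipid carrier that macrophages secrete as an acceptor for effluxed cholesterol. It was at 10.31 and 10.88 in wt and at 11.12 and 11.19 in cKO, which is 0.56 higher (standard error 0.22, 1.47-fold, 95% interval 0.98 to 2.21). The cKO mice differed by 0.07 and the wt mice by 0.58, the widest spread within a genotype in the group. The difference was accordingly 0.81 in litter 1 and 0.30 in litter 2. Leaving out wt replicate 1 gave 0.27, and leaving out wt replicate 2 gave 0.85.

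Mylip encodes IDOL, a ubiquitin ligase that limits lipoprotein uptake. It was at 8.96 and 9.01 in wt and at 9.19 and 9.40 in cKO, a difference of 0.31 (standard error 0.11, 1.24-fold, 95% interval 1.01 to 1.53). Within litters 1 and 2 the difference was 0.23 and 0.39, and leaving out cKO replicate 2 gave 0.21. Lpcat3, the acyltransferase that places polyunsaturated chains in membrane phospholipids, was at 10.17 and 9.85 in wt and at 10.28 and 10.22 in cKO. Its difference of 0.24 (standard error 0.14) was the narrowest of the group, with a 95% interval of -0.14 to 0.62, and it depended on the wt mice, at 0.40 when wt replicate 1 was left out and 0.08 when wt replicate 2 was. Within litters 1 and 2 it was 0.11 and 0.37. Neither gene reached the fold of 1.5.

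Plin2 encodes perilipin 2, the coat protein of lipid droplets. It was at 8.16 and 8.31 in wt and at 8.91 and 8.94 in cKO, with both genotypes tight around their means. The difference was 0.69 with a standard error of 0.10 (1.62-fold, 95% interval 1.35 to 1.93), and 0.75 and 0.64 within litters 1 and 2. Of the group it had the second smallest unadjusted p (limma, 0.00158), after Cd36.

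Cd36 encodes a scavenger receptor for long-chain fatty acids and oxidised lipoproteins, and it is also a marker of cDC1, the DC subset that carries CD8 in the spleen. It was at 8.86 and 8.52 in wt and at 10.16 and 10.19 in cKO. The cKO mice differed by 0.02, and the lower of them lay 1.30 above the higher wt mouse. The difference of 1.48 (standard error 0.14, 2.80-fold, 95% interval 2.14 to 3.66) was 1.30 in litter 1 and 1.67 in litter 2 and was exceeded by 0.182% of all genes. Over all probe sets it did not pass (limma, adjusted p = 0.163).

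**Figure D2:**
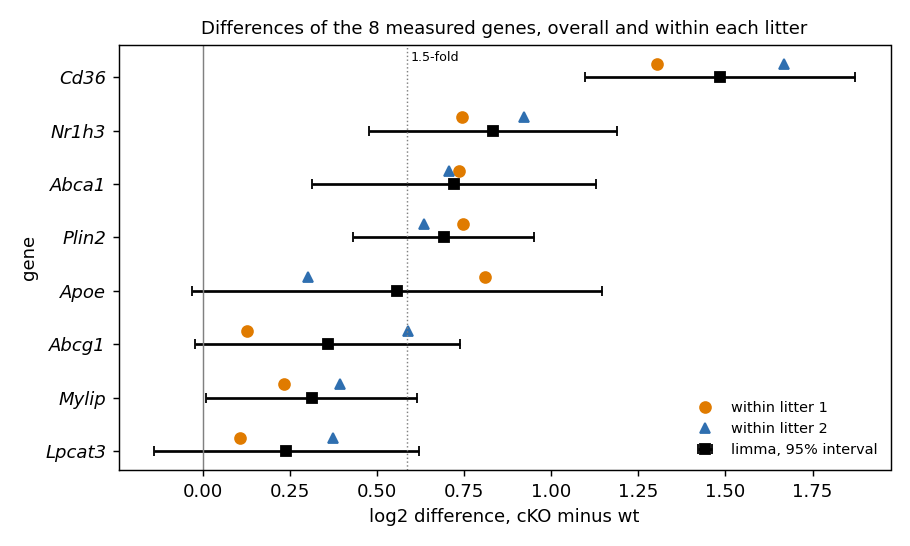
Log2 difference (x axis, cKO minus wt) of each gene (y axis): squares are limma estimates with 95% intervals, circles the difference within litter 1 and triangles within litter 2, with a dotted line at 1.5-fold. Cd36 is at 1.48 and Lpcat3 at 0.24, and all within-litter values lie right of 0.

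**Figure D3:**
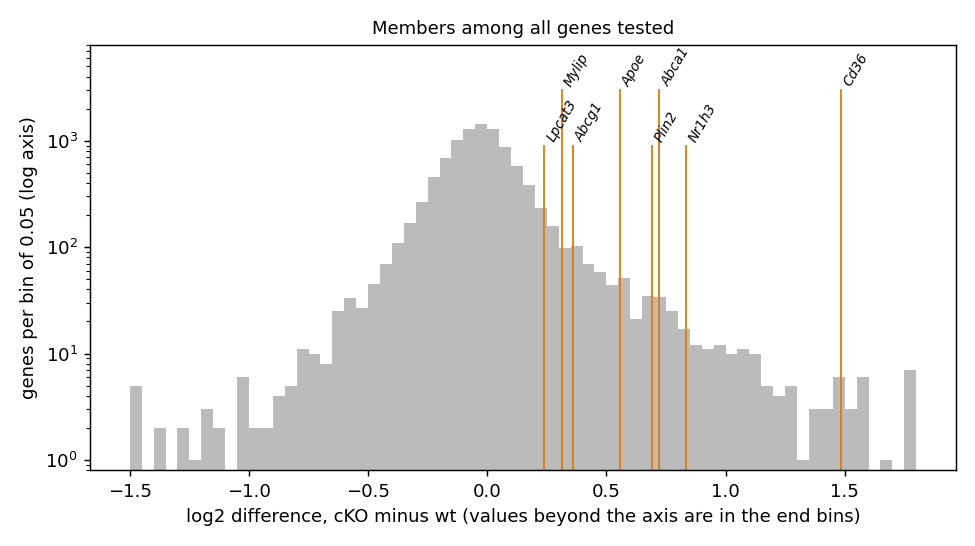
Histogram of the log2 difference (x axis, cKO minus wt) over 9894 genes tested, with the number of genes per bin on a log axis (y axis) and the 8 genes of the group as orange lines. They lie between 0.24 and 1.48, to the right of the median over all genes of -0.03.

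The genes whose pattern over the 4 arrays was most like that of Nr1h3, by Euclidean distance between values centred on each gene's mean, were Clec7a (distance 0.08), Fnip2 (0.08) and Ldlrad3 (0.08), out of 9893 genes ranked. Clec7a encodes Dectin-1, a receptor for fungal beta-glucan, and was at 9.44 and 9.12 in wt and at 10.20 and 10.15 in cKO. Plin2 was closest to Fbxo4 (0.05), Cmtm7 (0.06) and the CD11b gene Itgam (0.06). Cd36 was closest to Rab7b (0.16), Hpse (0.17) and Cd8a (0.17). With 4 arrays such likeness describes the values and nothing more.

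The wider pathway was described by 9 further lists holding 129 genes, of which 81 were tested, 33 lay under the limit on all arrays and 15 had no probe set of 1 symbol. By sign 45 were higher and 36 lower in cKO, with a median difference of 0.02, while 42.45% of all genes tested were higher by sign. By non-overlap 21 were higher and 21 lower, against 17.1% of all genes as higher and 28.3% as lower. Lrp1, Scd1 and Nr1d1 passed the study's thresholds as higher and Lrp8 as lower, and the other 77 passed in neither direction. Of all genes tested, 1.39% passed as higher and 0.455% as lower. Scd1, Nr1d1 and Osbpl5 passed the filter only through their cKO arrays, so their place in the counts of this paragraph gives no support. After limma's adjustment over all probe sets none passed. In either direction, 18 of the 81 had an unadjusted limma p under 0.05, against 5.37% of all genes as higher and 4.92% as lower.

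Among receptor partners and cofactors, 0 of 13 tested genes passed. Rxra, one of the RXR genes whose products pair with LXR, was at 7.53 and 7.48 in wt and at 7.77 and 7.84 in cKO (difference 0.30, standard error 0.09). Rxrb, another, was at 9.44 and 9.75 in wt and at 9.42 and 9.67 in cKO (difference -0.06, standard error 0.16), and Nrip1, a corepressor and coactivator of nuclear receptors, differed by -0.08. Of 7 genes tested in the list of other lipid-sensing nuclear receptors 1 passed, Nr1d1. It encodes REV-ERB-alpha, a repressor of the circadian clock that binds heme and is not a lipid sensor. Nr1d1 was at 6.22 and 6.23 in wt, under the limit, and at 7.02 and 6.88 in cKO. The retinoic acid receptor gene Rarg differed by 0.38 and did not pass.

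Other LXR target genes differed in both directions. Of 9 tested, 5 were higher and 4 lower by sign, and 1 passed: the desaturase gene Scd1 was at 6.48 and 6.47 in wt, just under the limit, and at 7.09 and 7.29 in cKO. Fasn, fatty acid synthase, was at 9.93 and 9.78 in wt and at 9.29 and 9.34 in cKO, a difference of -0.54 (standard error 0.10) that fell short of the fold of 1.5 only. Of this list 9 genes were not tested, among them Abcg5, Abcg8, Apoc1, Apoc4 and Lpl, which lay under 6.5 on all arrays.

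Of 15 other sterol transporters tested, 0 passed, with 7 higher and 8 lower by sign. Osbpl5, among the higher, was at 6.17 and 6.31 in wt, under the limit, and at 6.54 and 6.58 in cKO. Npc2, the lysosomal carrier that hands cholesterol to Npc1, was at 9.76 in both wt mice and at 10.30 and 10.35 in cKO, a difference of 0.57 (standard error 0.08), just under the fold limit. Stard4, a cytosolic sterol carrier, differed by -0.46.

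Uptake genes held the widest differences among these lists, in opposite directions. Lrp1, the large endocytic receptor for Apoe-containing lipoproteins, was at 9.11 and 9.55 in wt and at 10.41 and 10.77 in cKO, 2.40-fold higher (difference 1.26, standard error 0.21). Lrp8, a relative that binds Apoe and reelin, was at 9.63 and 9.66 in wt and at 8.86 and 8.68 in cKO (difference -0.88, standard error 0.10). The other 9 of 11 uptake genes tested did not pass.

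No storage or phospholipid gene outside the group passed the thresholds. Of 7 storage genes tested, 0 passed: Nceh1, a cholesteryl ester hydrolase, differed by 0.52 and Plin3, another droplet coat gene, by 0.11. Of 11 phospholipid remodelling genes, 0 passed, with Agpat3 at 0.41 and Lpcat2 at -0.12. Whether these genes differ from Plin2 or Lpcat3 in their response was not tested.

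Of 8 oxysterol genes 3 were tested, while 4 lay under the limit, Ch25h among them. Gpr183 was at 11.37 and 11.23 in wt and at 11.70 and 11.65 in cKO (difference 0.37, standard error 0.10), and Hsd3b7, which degrades its oxysterol ligands, differed by 0.47. Neither passed. Among SREBP processing and feedback genes, the arm that raises sterol synthesis when sterols are scarce, 4 of 5 were lower by sign and 0 passed. Srebf2 was at 11.52 and 11.46 in wt and at 11.22 and 11.22 in cKO (difference -0.27), and Insig1 differed by -0.21.

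**Figure D4:**
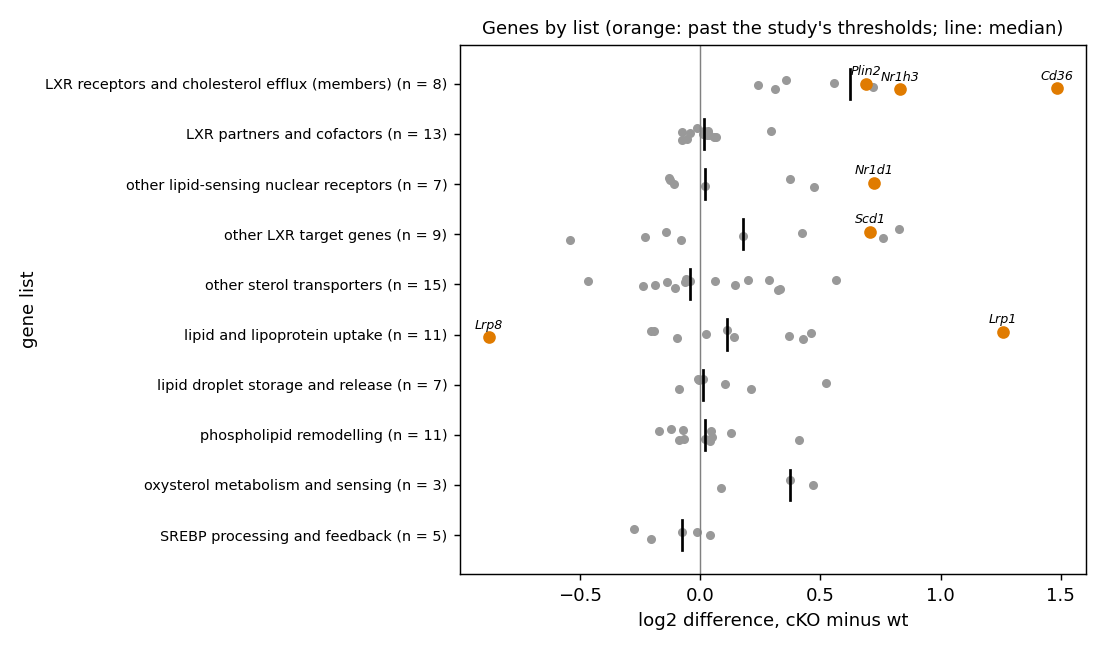
Log2 difference (x axis, cKO minus wt) of each tested gene, by gene list (y axis, with the number tested); orange points passed the study's thresholds and black lines are medians. The 8 measured genes of the group have a median of 0.62, and Lrp1 (1.26) and Lrp8 (-0.88) are the outermost points of the other lists.

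Most of the tested markers of other cell types were higher in cKO as well. For comparison with the counts that follow, 42.45% of all genes tested were higher by sign. The study's thresholds were passed as higher by 1.39%. Of 12 cDC1 markers tested (Cd36 not counted), 11 were higher and 9 passed the study's thresholds, and their summed linear level was 16156 and 14326 in wt and 27608 and 29731 in cKO. Of 13 macrophage markers tested, 13 were higher and 2 passed, with summed levels of 10760 and 13868 in wt and 16162 and 18069 in cKO, while Marco and Fcgr1 lay under 6.5 on all arrays. Of 5 monocyte markers, 5 were higher and 3 passed (summed levels 5137 and 5464 in wt, 7887 and 8777 in cKO), with Vcan and F13a1 under the limit. The monocyte marker Ccr2, among those that passed, and the macrophage marker Siglec1 lay under 6.5 in both wt mice. They entered these counts only through their cKO arrays. Of 6 plasmacytoid DC markers, 5 were higher and 1 passed, and of 3 B cell markers, 3 were higher and 0 passed, with Pax5 and Ebf1 under the limit. Of 6 neutrophil markers Csf3r alone reached the limit, and it passed as higher. Mertk and Cd5l stand in both the LXR target list and the macrophage list. The sort on CD11c, MHCII, Esam, CD4 and CD8 is meant to leave out CD8+ DC and cells that are not DC. In bulk RNA, more cells of a type and more RNA per cell cannot be told apart, and the part of these cells in the values of the group was not tested.

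Among the wt mice, the mean log2 value of the macrophage markers was 8.86 in replicate 1 and 9.37 in replicate 2. Of the group, Apoe, Abca1, Plin2 and Mylip were lower in wt replicate 1. Nr1h3, Abcg1, Lpcat3 and Cd36 were higher in wt replicate 1. A relation between these genes and the macrophage markers was not tested. Averaged over the 8 genes, the centred level was -0.32 and -0.33 in the wt mice and 0.28 and 0.37 in the cKO mice. DC core genes moved little, with 4 higher and 3 lower and a median difference of 0.03.

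**Figure D5:**
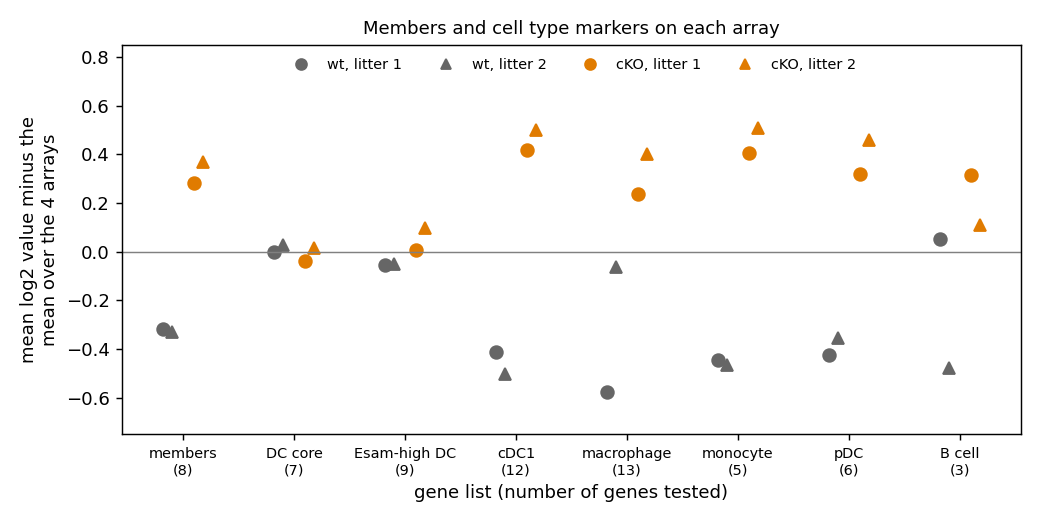
Mean log2 value of each gene list minus its mean over the 4 arrays (y axis), for the 8 genes of the group and for cell type marker lists (x axis, with the number of genes tested), circles for litter 1, triangles for litter 2, grey for wt and orange for cKO. The group lies at -0.32 and -0.33 in wt and at 0.28 and 0.37 in cKO, and cDC1 markers at -0.41 and -0.50 in wt and at 0.42 and 0.50 in cKO.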

How the data were processed

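The authors hybridised RNA from sorted cells of each mouse to Affymetrix 1.0 ST arrays and deposited log2 values, computed in Partek by robust multichip averaging with GC correction. Partek, RMA and the build mm9 are named in the submitters' processing notes without versions. These values were background-corrected and normalized between arrays, with array medians from 6.58 to 6.62. Since only summarized probe set values were used, single probes, and hence exons, are not resolved.

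Gene names came from the platform annotation where it gives a probe set exactly 1 symbol (21789 of 35399, with 1621 giving several and 11989 not listed), and the brightest probe set over the 4 arrays stood for a gene. Probe sets reaching 6.5 on at least 1 array (18889) were tested, cKO minus wt, with limma (version 3.58.1, R 4.3.3; lmFit and eBayes, two-sided, Benjamini-Hochberg adjustment over them, threshold 0.05), and counted at the study's thresholds with its one-way test. Each standard error rests on 2 residual degrees of freedom plus 2.20 from the prior. The mice are separate animals, 2 per genotype, which limits precision. Litter numbers, given by the labels, pair the mice (deviations from the group means correlated at r = 0.27 over tested probe sets, which are not replicates), and were a block in an alternative fit. The procedure was tested on simulated data. Promoter windows are RefSeq's.

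Named genes were the listed genes, the 3 most alike genes for Nr1h3, Plin2 and Cd36, and in each further list those past the study's thresholds. Where fewer than 2 passed, genes with the smallest limma p were added up to 2. Rxrb was named outside this rule, as another RXR gene, and Osbpl5 because both its wt values lie under 6.5. Members, lists and rules were chosen with earlier results of these data known. Alternatives changed the filter, the features fitted, the test, the variance trend, the scaling between arrays, the probe set rule and the arrays included.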

Additional observations from a re-analysis of the deposited data

How the results depend on the processing

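Only another scaling between arrays could turn the direction of a difference: with quantile normalization the lowest difference of the 8 measured genes (Lpcat3) was 0.25 and with arrays centred on their medians 0.23. Changes of filter or test leave the differences as they are, and leaving out an array cannot make separate groups overlap. The number of the 8 genes past the adjusted threshold was 1 with 1 probe set per gene and 1 with the mean of a gene's probe sets, 4 with 1 probe set per gene and the replicate block (added after the data were seen, and calling 4.13% of all genes), and 0 in the rest, the replicate block over all probe sets included. At the study's thresholds the count of 3 became 1 with the replicate block (Abca1, while Nr1h3, Plin2 and Cd36 missed the p limit). With limma's unadjusted p it was 4. With 1 array left out, the same 3 genes never passed together. Nr1h3 passed in none of those fits, while its difference stayed between 0.69 and 0.97. For the further pathway genes the count of 4 became 1 with the replicate block, ran from 0 (without wt replicate 1) to 4 with 1 array left out, and was 5 with limma's unadjusted p. With the block or an array left out the one-way test keeps only 1 of its 2 residual degrees of freedom. Fits without 1 array take the lone mouse to vary like the other genotype. With 2 mice per genotype precision is low, and values near 6.5, as for Abca1, Scd1, Nr1d1 and Osbpl5, lie close to background.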
